A study of Mus musculus with 42 samples.

Results

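Splenic CD4+ T cells of the conventional kind (Tconv) were followed between 8 and 24 h after KT3, an antibody against CD3, had been injected into mice. The comparison rests on 4 of the 42 arrays of the series, namely 2 at 24 h and 2 at 8 h, which were chosen by their labels and paired by the number (1 or 2) that the labels give. All injected and untreated mice were females of the NOD strain, which develops autoimmune diabetes, aged 8 weeks and carrying Foxp3-IRES-GFP, a reporter that turns Foxp3+ regulatory T cells (Treg) green. Tconv were sorted as CD4+ GFP- cells that lacked B220, CD8a, CD11b and CD11c, after an intravenous dose of KT3 of unstated amount. The resting level was taken from 2 arrays of untreated mice (0 h), and 1 array of number 2, made 24 h after rat IgG, gave a control for the injection. Further arrays of the same kind at 72 h (2), and Treg (CD4+ GFP+) of KT3-injected mice at 8 and 24 h (2 each), were used for comparison. In a parallel experiment KT3, at 1.25 µg/ml, was put on cultured splenocytes from mice of that strain with the reporter on both alleles, females of 9 weeks for number 1 and males of 14 weeks for number 2. Sorting was done in 1 round (single) for number 2 at 8 h and number 1 at 24 h, and in 2 rounds (double) for the other 2 arrays of the comparison, so that each time held 1 array of either kind. The labels do not say whether the arrays of a group stem from different mice. The p-values therefore reflect the spread between these samples alone, and that spread may be technical.

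The T cell receptor passes its signal through the CD3 chains. Engagement is known to switch on early transcription factors and cytokines within hours, then to raise the machinery for making ribosomes and proteins, and later to drive cells into division. The same signal turns down genes of the resting state, such as the receptors for interleukin-7 and for sphingosine 1-phosphate, which serve survival and exit from lymphoid organs.

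All values below are log2 intensities of gene arrays, and all differences are differences of log2 intensity ± SE, so that 1 unit is a 2-fold change. Each value for array number 1 stands before that for number 2. A change was called where limma's adjusted p, taken over all 11588 tested genes, was under 0.05. The sorted cells carried the markers of their label, with 7 of 7 T cell markers above the array median on all 4 arrays and a mean level of 10.85 and 10.85 at 8 h and 11.51 and 11.63 at 24 h. Markers of macrophages averaged 6.56 and 5.58 at 8 h and 6.38 and 5.59 at 24 h, and those of B cells 6.60 and 5.39, then 6.27 and 5.57. Number 1 thus held more of both at both times. Of the 29 tested genes that mark other cell types (B, plasma, CD8 T, dendritic and erythroid cells, macrophages, neutrophils and platelets), limma called 0 between 8 and 24 h, and 0 had an unadjusted p under 0.05. Their differences ran from -0.78 (Ms4a1, a B cell surface protein) to 0.46, and a fit of the Tconv arrays alone called 2. In bulk samples, fewer cells of a kind and less RNA per cell cannot be told apart.

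Promoter sequences are given for the genes of the lists used here with the largest fall among those that returned from above (Ccr8 and Il21) and the largest rise among those first raised by 24 h (H1f5 and Dapl1). Each is the 250 bases before the start of the gene in RefSeq (build GRCm38.p6), 5′ to 3′ on the strand of the gene. Capitals mark CCAAT on either strand, the core of the CCAAT box that many promoters of dividing cells hold. The regions are chr9:120091883-120092132 (plus strand, Ccr8), chr3:37232637-37232886 (minus, Il21), chr13:21780626-21780875 (minus, H1f5) and chr2:59484403-59484652 (plus, Dapl1).
Ccr8: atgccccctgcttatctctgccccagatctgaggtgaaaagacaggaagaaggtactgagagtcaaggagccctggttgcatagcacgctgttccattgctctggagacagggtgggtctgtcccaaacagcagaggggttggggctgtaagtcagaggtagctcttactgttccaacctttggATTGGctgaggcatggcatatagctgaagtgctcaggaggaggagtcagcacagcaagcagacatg
Il21: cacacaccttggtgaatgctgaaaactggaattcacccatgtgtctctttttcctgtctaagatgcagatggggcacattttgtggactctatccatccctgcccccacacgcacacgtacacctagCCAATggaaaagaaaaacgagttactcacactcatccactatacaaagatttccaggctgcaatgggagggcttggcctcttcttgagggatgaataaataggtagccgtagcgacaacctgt
H1f5: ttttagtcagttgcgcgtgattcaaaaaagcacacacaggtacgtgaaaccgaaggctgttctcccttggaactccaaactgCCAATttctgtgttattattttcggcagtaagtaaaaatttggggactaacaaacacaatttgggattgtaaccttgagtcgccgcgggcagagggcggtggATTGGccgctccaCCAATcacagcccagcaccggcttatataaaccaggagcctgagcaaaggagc
Dapl1: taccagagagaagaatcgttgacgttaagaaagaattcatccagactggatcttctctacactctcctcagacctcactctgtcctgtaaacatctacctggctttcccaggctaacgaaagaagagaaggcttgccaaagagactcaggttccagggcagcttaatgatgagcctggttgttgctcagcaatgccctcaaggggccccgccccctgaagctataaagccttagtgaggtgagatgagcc

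CCAAT was found 3 times before H1f5, 1 time each before Ccr8 and Il21 and 0 times before Dapl1. Among the 32851 RefSeq promoters a share of 33.8% held it. Of the 9281 tested genes with an entry 39.7% did, where a gene counts if any of its promoters holds the letters. Shares over all promoters and shares of genes are thus unlike measures, here and for the other letters below. The share was 54.5% among 268 genes first raised by 24 h and 37.9% among 1722 that returned from above. GGAAA, the core of sites for NFAT, occurred 3 times before Il21, 1 time before Dapl1 and 0 times before the other two, with a share of 55.6% over all promoters. Among genes tested, returned from above and first raised by 24 h, in this order, its shares were 57.9, 59.2 and 59%. TGANTCA (a loose form of the AP-1 site with any base as N, 6.75% of all promoters) and AAACACA (the H1 box of linker histone genes, 6.25%) each occurred 1 time, before H1f5. The letters of the first match are TGATTCA, while the usual AP-1 site has G or C in the middle, so it is not that site. TATAAA (12.4%) occurred 1 time each before H1f5 and Dapl1. The shares in the same order were 5.13, 4.01 and 2.99% for TGANTCA, 5.1, 3.66 and 5.97% for AAACACA, and 7.71, 6.79 and 7.84% for TATAAA. The promoters of a class were not tested against the rest. All were searched on both strands, and a match is a description of letters, not a binding site.

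Between 8 and 24 h 4126 of 11588 genes changed (35.6%), of which 2335 fell (20.2%) and 1791 rose (15.5%). The changes were at least 2-fold for 829 of the genes that fell and 632 of those that rose. Each of the 4126 moved in the same direction in both pairs, but the call rests on the mean of these same pairs and favours this. For 4080 of them the 8 h and 24 h arrays did not overlap, which was so for 61.1% of all genes tested. Across genes, which are not independent replicates, the difference of pair 1 correlated with that of pair 2 at 0.920. The split between directions depended on scaling, with 43.4% of called genes higher at 24 h in these values, 48.6% after quantile normalization and 36.0% after centring each array on its median.

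**Figure D1:**
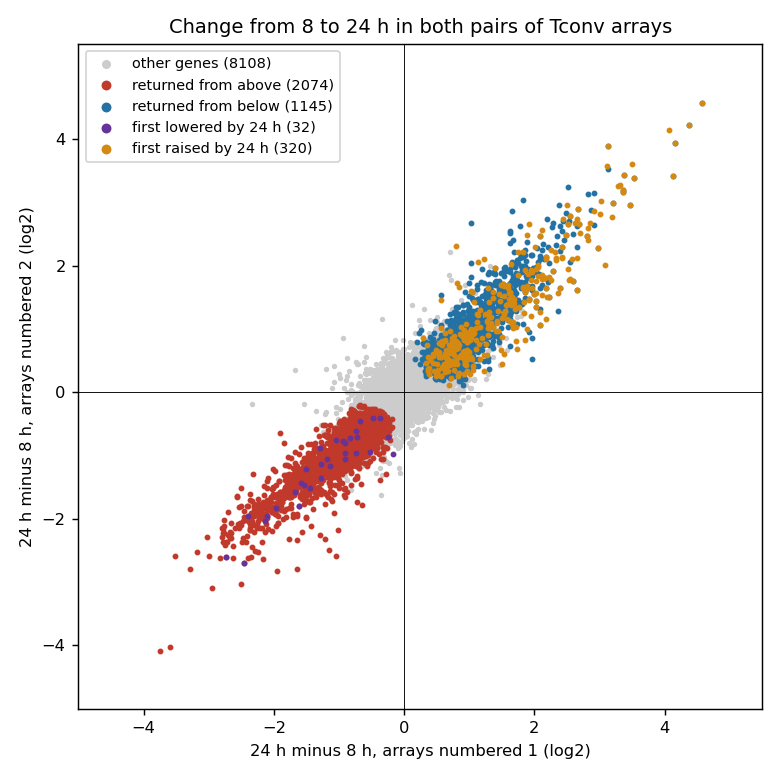
Each point is a gene, with the 24 h minus 8 h difference (log2) between the arrays numbered 1 on the horizontal axis and between those numbered 2 on the vertical axis. Colours give the classes described in the text, and the 76 and 15 genes that belong to 2 classes are drawn as first raised or first lowered. The called genes lie along the diagonal in both directions.

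Most of the movement ran back toward rest. At 8 h 2929 genes stood above the resting level (25.3% of those tested) and 1659 below it (14.3%), which makes 39.6% in all. By 24 h 869 genes differed from rest (7.5%), 764 of them higher (6.59%) and 105 lower (0.906%). Of the 2929 raised genes 2074 fell by 24 h, 831 were not called between the times and 24 rose further. Of the 1659 lowered genes 1145 rose, 514 were not called and 0 fell further in the limma fit (1 at an unadjusted p under 0.05). These comparisons share arrays, so the counts describe the course and are no independent evidence for each other. The direct count of genes off rest at 24 h was lower when any 1 of the arrays of 0 h or 24 h was left out. A group then holds 1 array, so reliance on particular arrays and less precision cannot be told apart.

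The 2074 genes that returned from above (17.9% of those tested) had a median level of 8.17 and 8.11 at 0 h, 9.24 and 9.21 at 8 h, and 8.23 and 8.25 at 24 h. Both 24 h arrays thus lay close to the resting arrays. Their distance from the 8 h arrays follows from the rule that chose these genes and is no separate result. Of these genes 1935 were not called against 0 h at 24 h, 124 were still higher and 15 were lower. The median gene had lost 91.4% of its 8 h rise, with quartiles of 75.2 and 110%, where values over 100% pass the resting level. These genes had been called as falling, and over all 2929 genes raised at 8 h, called afterwards or not, the median return was 79.7%. That set too was chosen by its 8 h level, which enters the return and favours a high value. The IgG array, which entered the definition of these genes only through the filter on low values, stood at a median of 8.21.

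The 1145 genes that returned from below (9.88%) had medians of 8.78 and 8.79 at rest, 7.80 and 7.78 at 8 h, and 8.90 and 8.84 at 24 h. Their median return was 104% (quartiles 86.9 and 130%), against 89.8% over all 1659 genes lowered at 8 h, and the IgG array stood at 8.89. At 24 h 1047 of them were not called against rest, 76 were higher and 22 still lower.

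Ccr8, a chemokine receptor of activated and skin-homing T cells, was at 6.17 and 5.78 at rest, 9.58 and 9.67 at 8 h, and 5.83 and 5.58 at 24 h. It fell by 3.92 ± 0.20 (adjusted p = 3.95e-08) and was back in the range of the resting arrays or just below it, with no call against rest (adjusted p = 0.498). Il21, the cytokine of follicular helper cells, went from 4.52 and 4.87 to 9.49 and 9.70 and then to 5.90 and 5.67. It fell by 3.81 ± 0.19 (adjusted p = 3.95e-08), and at 24 h it was still 1.09 ± 0.19 above rest (adjusted p = 0.00281). Il2, the main T cell growth factor, was 7.33 and 8.46 at 8 h and 4.83 and 5.43 at 24 h, against 4.91 and 4.76 at rest. The 8 h arrays differed more for Il2 than for Il21, yet both lay above every array at 0 and 24 h. Il2 fell by 2.76 ± 0.29 (adjusted p = 8.72e-06). At 0 and 24 h Ccr8, Il2 and Il21 lay below the array median, where the size of a log2 difference is uncertain. With 32 added to each intensity before log2, their falls were 3.28 (Ccr8), 2.01 (Il2) and 3.21 (Il21), and all 3 kept their call.

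Over all genes 20.2% fell and 15.5% rose, and the median was 0.02. Among 17 tested cytokine and chemokine genes 6 fell and 2 rose, with a median of -0.41. Those that fell included the cytokine gene Lif (-2.32 ± 0.22), and Ifng, interferon gamma, which went from 7.31 and 7.78 to 6.15 and 6.12. The 2 that rose had been low at 8 h: Ccl5, a chemokine of memory and effector cells, went from 7.76 and 7.27 to 8.78 and 9.31, and Ltb, lymphotoxin beta, rose by 1.36 ± 0.17. The median return of the 7 cytokine genes raised at 8 h was 90.3%.

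Il2ra, the CD25 chain of the receptor for interleukin-2, stood at 6.23 and 5.52 at rest, 9.59 and 10.13 at 8 h, and 6.30 and 7.32 at 24 h. Number 1 was thus close to rest again and number 2 was not, and the fall was 3.05 ± 0.30 (adjusted p = 4.34e-06). Tnfrsf9, the costimulatory receptor 4-1BB, fell from 11.19 and 10.74 to 8.87 and 9.46, and was still 1.72 ± 0.27 above rest (adjusted p = 0.00142). Of 17 activation and costimulatory receptors 8 fell, 3 rose and 6 were not called, and the 12 raised at 8 h had a median return of 54.3%. Among all tested genes 20.2% fell and 15.5% rose, so the 3 rises in this list were near the share over all genes. The 3 that rose were Tnfsf4, Il2rb and Cd44, of which Tnfsf4 and Il2rb had been raised at 8 h, and 1 rose without number 1 of 8 h or number 1 of 24 h. Tnfsf4, the ligand of the costimulatory receptor OX40, climbed from 4.82 and 5.09 at rest to 7.89 and 7.58 at 8 h and 8.70 and 8.76 at 24 h, a rise of 1.00 ± 0.14 between these times (adjusted p = 9.08e-05).

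Of 22 early T cell receptor response factors 7 fell, 2 rose (Egr1 and Dusp6) and 13 were not called. Over all genes 20.2% fell and 15.5% rose. The median of the list was -0.05, and its 10 genes raised at 8 h had a median return of 50.1%. Without number 1 of 24 h 4 fell, and 1 rose without number 1 or 2 of 8 h or number 2 of 24 h. Irf4, a transcription factor whose level follows the strength of the receptor signal, was 6.54 and 6.55 at rest, 10.27 and 10.51 at 8 h, and 8.34 and 8.75 at 24 h. It fell by 1.85 ± 0.19 (adjusted p = 5.60e-06) and remained 2.00 ± 0.19 above rest (adjusted p = 1.82e-05). Myc, the growth-promoting transcription factor, fell from 10.74 and 10.98 to 8.16 and 9.34, with 9.22 and 9.23 at rest, a fall of 2.11 ± 0.29 (adjusted p = 6.85e-05).

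The 24 h arrays disagreed on several immediate targets of the receptor. Nr4a1, an orphan nuclear receptor induced by receptor signals, was 11.77 and 12.09 at 8 h and 9.92 and 11.28 at 24 h. Its relative Nr4a3 was 8.91 and 9.26 at 8 h and 7.0 and 8.60 at 24 h. Both were higher on number 2 at 24 h by more than the 8 h arrays differed. Nr4a1 fell by 1.32 ± 0.32 (adjusted p = 0.00553) and Nr4a3 by 1.28 ± 0.34 (adjusted p = 0.00826). Without number 1 of 24 h the differences were -0.78 and -0.64 and neither passed, and without number 1 of 8 h Nr4a3 was -1.23 and did not pass. Egr2, an early response factor, and the activation marker Cd69 were not called (-0.07 ± 0.28 and -0.25 ± 0.24). For both, number 1 was lower and number 2 higher at 24 h than at 8 h. Cd69 reached -0.74 and was called without number 2 of 24 h, and turned to 0.24 without number 1.

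Targets of NF-kB and NFAT fell in 8 of 15 cases, and 1 rose, where 20.2% fell and 15.5% rose over all genes. Nfkb2, a subunit of the noncanonical NF-kB pathway, went from 10.25 and 10.21 to 8.49 and 8.57, next to its resting arrays of 8.53 and 8.30. Of 9 genes of interleukin-2 and STAT5 feedback 6 fell and 2 rose, against the same shares over all genes. Cish, an inhibitor that STAT5 induces, fell from 9.09 and 9.41 to 6.91 and 7.26, below both resting arrays (7.99 and 7.36), though not called against them (adjusted p = 0.16).

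**Figure D2:**
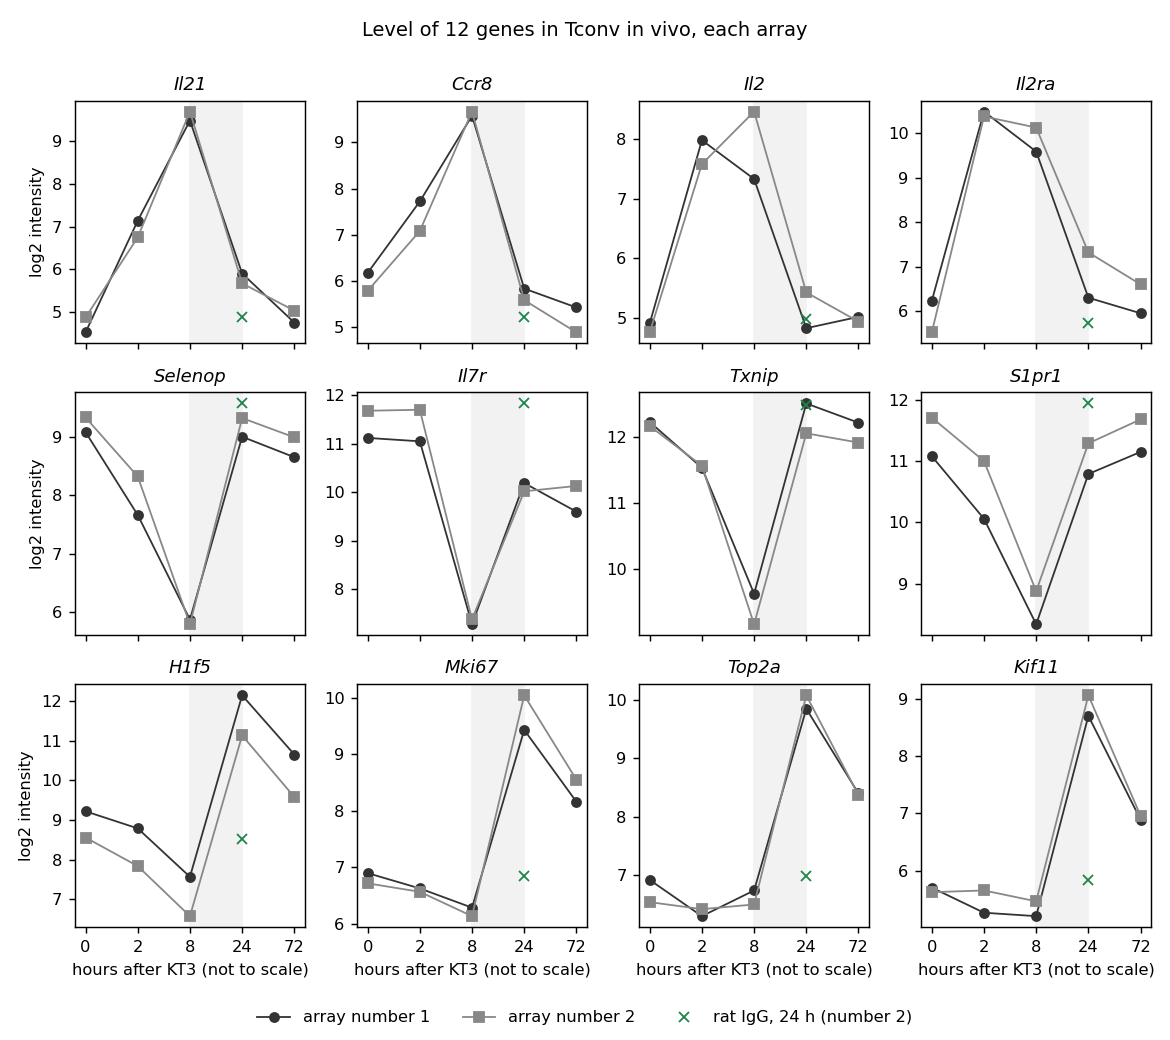
Log2 intensity of 12 genes on each Tconv array in vivo at 0, 2, 8, 24 and 72 h after KT3 (circles number 1, squares number 2, cross the rat IgG array at 24 h), with the span from 8 to 24 h shaded and the time axis not to scale. The top row falls toward rest, and Il21 on both arrays and Il2ra on number 2 remain clearly above it at 24 h. The middle row climbs back from its low at 8 h, and the bottom row is at or below rest at 8 h and peaks at 24 h.

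Genes of protein synthesis fell together. Of 20 ribosome biogenesis genes 20 fell, by a median of 2.02, from a state in which all 20 had been raised at 8 h. Polr1b, a subunit of RNA polymerase I, was 8.26 and 7.99 at rest, 10.26 and 10.11 at 8 h, and 7.62 and 7.80 at 24 h. Both 24 h arrays thus lay under both resting arrays, without a call against rest (adjusted p = 0.112). The median return of the list was 115%, and 2 of its genes were called below rest. Rrs1, an assembly factor of the large ribosomal subunit, was one of them, at 8.36 and 8.03 at rest, 9.62 and 9.98 at 8 h, and 6.89 and 7.38 at 24 h. It fell by 2.67 ± 0.21 (adjusted p = 9.18e-07) and ended 1.06 ± 0.21 under rest (adjusted p = 0.00761).

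Of 16 aminoacyl-tRNA synthetases, which load amino acids onto tRNA, 16 fell, by a median of 1.49. Iars, the isoleucine enzyme, went from 10.78 and 10.81 to 8.64 and 8.84, against 9.09 and 9.05 at rest. Of 15 heat shock proteins and chaperones 15 fell, by a median of 1.32. Hsph1, a partner of Hsp70, went from 11.10 and 11.26 to 7.59 and 8.67, on either side of its resting values of 8.56 and 8.32. Among 18 proteasome subunits 17 fell, with a median of -1.0 over the list and a median return of 72.2%. Psmd1, a scaffold of the regulatory particle, was 10.83 and 11.00 at 8 h and 9.24 and 9.34 at 24 h. It remained slightly above its resting arrays of 9.11 and 8.93, without a call (adjusted p = 0.436).

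In metabolism 11 of 13 glycolysis genes fell and 1 rose, with a median of -1.03. Hk2, a hexokinase that commits glucose to the pathway, went from 8.78 and 8.61 back to 6.38 and 6.58, with 6.57 and 6.32 at rest. The gene that rose was Slc2a3, a glucose transporter, by 0.66 ± 0.14 (adjusted p = 0.00213). Of 16 genes of the ATF4 and amino acid response 11 fell and 1, Trib3, rose, a call lost without number 2 of 8 h or number 1 of 24 h. Shmt2, the mitochondrial serine hydroxymethyltransferase of one-carbon metabolism, fell by 2.17 ± 0.18 (adjusted p = 1.31e-06) from 10.87 and 10.68 to 8.73 and 8.47.

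Of 15 cholesterol synthesis genes 10 fell, and the 10 raised at 8 h had a median return of 136%. Sqle, squalene epoxidase, was 7.49 and 7.43 at rest, 8.89 and 9.20 at 8 h, and 6.43 and 6.50 at 24 h. It fell by 2.58 ± 0.25 (adjusted p = 3.93e-06) and ended 0.99 ± 0.25 below rest (adjusted p = 0.027). Of 21 respiratory chain genes 11 fell and 10 were not called, with a median return of 52.6%. Cycs, the electron carrier cytochrome c, was 8.99 and 8.50 at rest, 11.09 and 10.79 at 8 h, and 9.59 and 9.52 at 24 h. Its arrays at 24 h lay between those of the other times, 0.81 ± 0.21 above rest (adjusted p = 0.0325). Single arrays moved the count of respiratory chain genes that fell: it was 5 and 7 without number 1 or 2 of 8 h, and 7 without either array of 24 h.

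**Figure D3:**
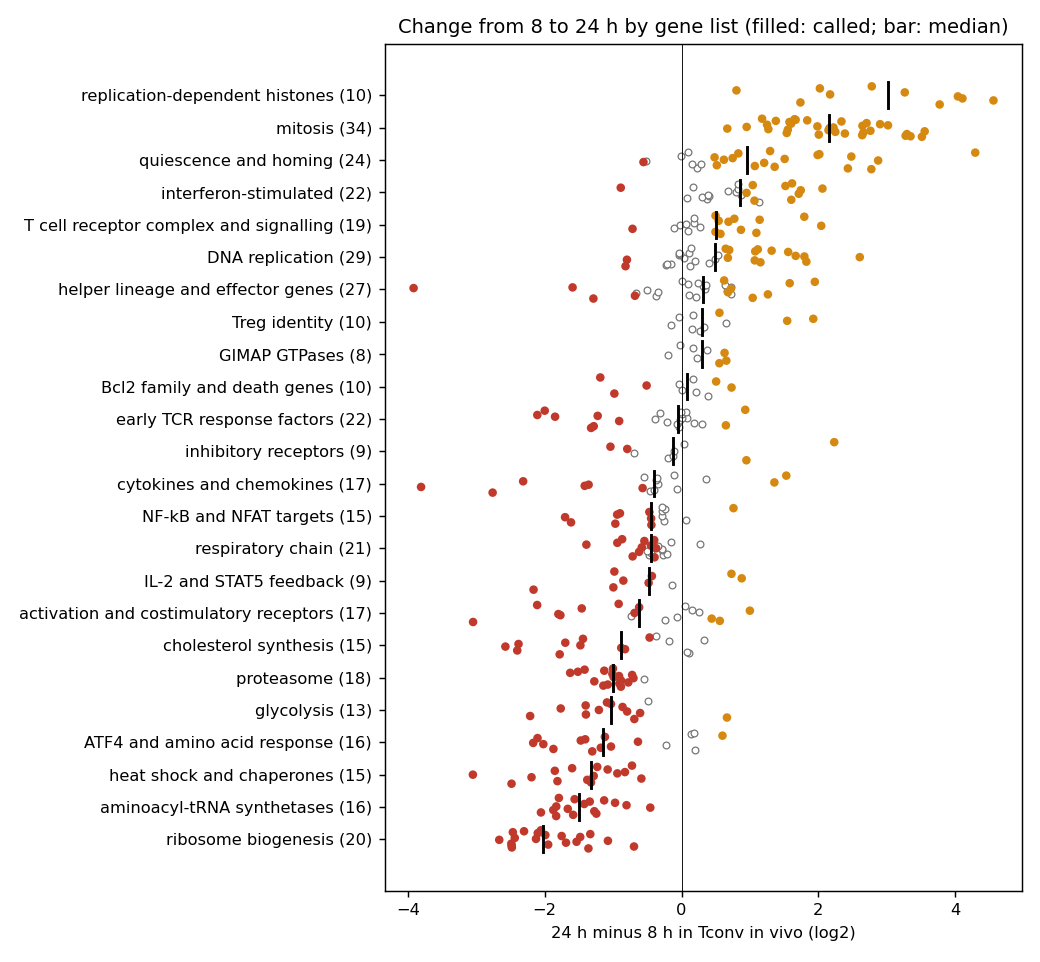
Each point is a gene of a list, placed by its 24 h minus 8 h difference (log2) in Tconv in vivo, with called genes filled, other genes open, the median as a black bar and the number of genes tested in brackets. Ribosome biogenesis, aminoacyl-tRNA synthetases and chaperones lie wholly to the left of 0, and mitosis and histones wholly to the right.

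Genes of the resting state came back from below. Of 24 quiescence and homing genes 17 rose, 1 (Satb1) fell and 6 were not called, with a median of 0.95. The call of Satb1 was lost without number 2 of 8 h or number 1 of 24 h. The 19 lowered at 8 h had a median return of 98.4%. S1pr1, the receptor that lets T cells leave lymphoid organs, was 11.08 and 11.71 at rest, 8.34 and 8.88 at 8 h, and 10.79 and 11.29 at 24 h. Both arrays at 24 h lay just under the resting array of the same number, and the rise was 2.43 ± 0.17 (adjusted p = 4.51e-07). Txnip, an inhibitor of thioredoxin and glucose uptake, was 12.22 and 12.16, then 9.63 and 9.17, then 12.50 and 12.05. It had thus returned in full, as had Klf2, a transcription factor of quiescence that drives S1pr1, which went from 9.43 and 9.15 to 10.69 and 10.62, with 10.60 and 10.75 at rest.

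Il7r, the interleukin-7 receptor chain of resting T cells, returned in part. It was 11.12 and 11.68 at rest, 7.28 and 7.38 at 8 h, and 10.19 and 10.02 at 24 h, and the IgG array stood at 11.83. The rise was 2.78 ± 0.28 (adjusted p = 5.60e-06), and 1.29 ± 0.28 was still missing (adjusted p = 0.0118). Selenop, a selenium transport protein, came back to its resting level, from 5.87 and 5.79 to 9.00 and 9.32, with 9.08 and 9.33 at rest. Dapl1, whose role in T cells is little known, passed its resting level. It was 9.18 and 9.35 at rest, 6.14 and 6.36 at 8 h, and 10.51 and 10.58 at 24 h, a rise of 4.30 ± 0.26 (adjusted p = 1.48e-07). Both arrays ended above rest, by 1.28 ± 0.26 (adjusted p = 0.00866). Ccr7, the receptor for homing to lymph nodes, was not called at 8 h against rest or between 8 and 24 h (0.22 ± 0.16, adjusted p = 0.324).

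Of 19 genes of the T cell receptor complex and its signalling 11 rose and 1 fell, with a median of 0.5. Cd3d, a chain of CD3, was 11.19 and 10.93 at rest, 10.52 and 10.11 at 8 h, and 11.50 and 11.31 at 24 h. Trat1, an adaptor that stabilises the receptor at the surface, recovered only in part, from 4.89 and 5.79 to 6.74 and 8.03, against 8.43 and 9.24 at rest. Of 22 interferon-stimulated genes 9 rose and 1 fell, where 15.5% rose and 20.2% fell over all genes. Of the 10 in this list that were below rest at 8 h 8 returned. Irf7, a master factor of the interferon response, went from 8.05 and 7.67 to 9.83 and 9.31, each above the resting array of its number (9.39 and 8.73) without a call (adjusted p = 0.196). Cd96, an inhibitory receptor that binds CD155, came back from 8.45 and 8.35 to 10.58 and 10.69, a rise of 2.23 ± 0.13 (adjusted p = 1.23e-07).

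Of 27 helper lineage and effector genes 7 rose and 4 fell, where 15.5% rose and 20.2% fell over all genes. Tbx21, the factor of type 1 helper cells, fell from 9.46 and 9.27 to 8.04 and 8.12, and was still above its resting arrays of 7.48 and 7.10. Vim, an intermediate filament protein, rose from 9.64 and 8.82 to 11.33 and 11.03. Il12rb2, an interleukin-12 receptor chain, fell by 1.59 ± 0.42 (adjusted p = 0.00895), a call lost without number 2 of 8 h (-1.14) or number 2 of 24 h (-1.40). Of 10 genes of the Bcl2 family and cell death 3 fell and 2 rose, counts near the 20.2% that fell and 15.5% that rose over all genes. The call of both rises was lost without number 2 of 8 h or number 1 of 24 h, and that of 1 without number 1 of 8 h. Bcl2l1, which encodes the survival protein Bcl-xL, fell from 8.31 and 8.16 to 7.28 and 7.23, in the range of its resting arrays. Of 8 GIMAP GTPases, which act in lymphocyte survival, 3 rose, led by Gimap3 (0.66 ± 0.14, adjusted p = 0.00276), a call lost without number 1 of 24 h (0.47). All 3 calls were lost in a fit of all 42 arrays.

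Other genes were first raised by 24 h. By then 320 genes (2.76% of those tested) had risen above both 8 h and rest without a call above rest at 8 h. Their median level was 7.49 and 7.26 at 0 h, 7.26 and 7.06 at 8 h, and 8.76 and 8.35 at 24 h, against 7.33 on the IgG array. Number 1 was higher than number 2 at each time, and both rose, which the rule that chose these genes favours. Of these genes 76 had been below rest at 8 h, so they count also among those that returned from below. The count was 172 and 193 without number 1 or 2 of 0 h and 150 without number 1 of 24 h.

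Genes of cell division were frequent in it. Of 37 mitosis genes listed 34 passed the filter on low values, and all 34 rose between 8 and 24 h, with a median of 2.16 against 0.02 over all genes. Limma had called 0 of them above rest at 8 h (1 at an unadjusted p under 0.05), and all 34 belong to the genes first raised by 24 h. Without the filter 36 were tested and 36 rose. Kif11, a motor that separates spindle poles, was 5.70 and 5.62 at rest, 5.20 and 5.46 at 8 h, and 8.71 and 9.07 at 24 h. Mki67, a protein of dividing cells, was 6.90 and 6.72, then 6.29 and 6.14, then 9.43 and 10.04. Top2a, a topoisomerase needed to separate chromosomes, was 6.92 and 6.54, then 6.74 and 6.50, then 9.85 and 10.08. In all 3 genes both arrays at 24 h lay above every array at 0 and 8 h, which the rule of their class favours. The 8 h and 24 h arrays did not overlap for 61.1% of all genes tested. The rises of Kif11, Mki67 and Top2a were 3.56 ± 0.31, 3.51 ± 0.22 and 3.35 ± 0.23 (adjusted p = 1.65e-06, 2.24e-07 and 3.14e-07). At 72 h Mki67 was at 8.16 and 8.55, lower than at 24 h and higher than at rest. Under a stricter filter 28 mitosis genes were tested and all 28 rose. Across the alternatives, with fits that left out single arrays included, the median of the list ran from 1.7 to 2.24.

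Replication-dependent histones, which supply chromatin in S phase, rose as well. Of 20 listed 10 were tested and 10 rose, by a median of 3.02, and 8 of them had been below rest at 8 h. Without the filter 12 of 12 rose, by a median of 2.48. H1f5, a linker histone whose promoter is printed above, was 9.22 and 8.56 at rest, 7.57 and 6.58 at 8 h, and 12.14 and 11.13 at 24 h. It rose by 4.56 ± 0.24 (adjusted p = 4.37e-08) to 2.74 ± 0.24 above rest (adjusted p = 9.26e-06). H2ac4, a core histone, was near the low end of the array at rest (3.98 and 3.73) and at 8 h (4.05 and 3.19), and at 8.12 and 7.34 at 24 h. Its difference of 4.11 became 2.46 with 32 added before log2. A gene of this kind passes the filter on low values through the arrays where it is high. Histone genes have near-identical copies, so a value may hold signal of several, and single members are uncertain.

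DNA replication genes were split by time. Of 29 tested 18 were above rest at 8 h already and 28 at 24 h, and between the times 13 rose, 2 fell and 14 were not called. Of the 2 falls 1 was called without number 2 of 8 h or number 2 of 24 h, and both calls were lost without the replicate block. Rrm2, a subunit of ribonucleotide reductase, came late, at 7.56 and 7.03 at rest, 7.26 and 6.97 at 8 h, and 9.96 and 9.48 at 24 h (2.61 ± 0.24, adjusted p = 2.73e-06). Cdc6, a loader of the replicative helicase, was also flat at 8 h and went from 7.22 and 6.83 to 9.33 and 8.37. By contrast Mcm2, a subunit of that helicase, was 9.00 and 8.66 at rest, 11.07 and 10.73 at 8 h, and 10.31 and 9.85 at 24 h. Both arrays at 24 h lay between those of rest and 8 h, with a fall of 0.82 ± 0.18 (adjusted p = 0.00229), and Gins1, of the helicase complex, fell by 0.80 ± 0.21 (adjusted p = 0.00907). Lig1, a DNA ligase, rose in both steps, from 7.41 and 6.77 to 7.82 and 7.59 and then 9.58 and 8.94, as did Dtl, a factor of the replication-coupled ubiquitin ligase, from 5.48 and 5.52 to 6.58 and 6.79 and then 8.39 and 8.08. These belong to the 24 genes that rose at 8 h and again by 24 h.

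Outside division, 10 Treg identity genes were tested, of which 3 rose between 8 and 24 h and 7 were not called. Over all genes 15.5% rose. Of the 10, 2 were first raised by 24 h, against 2.76% of all genes. Izumo1r, the folate receptor 4, was 8.43 and 8.36 at rest, 8.31 and 7.94 at 8 h, and 10.27 and 9.84 at 24 h. Gpr83, a G protein-coupled receptor, was 7.89 and 7.68, then 7.89 and 7.76, then 9.73 and 9.02. Both were higher on each 24 h array than on any array at 0 or 8 h, which the rule of their class favours. Foxp3 itself, which defines Treg, was not called (7.20 and 7.02 at 8 h, 7.71 and 7.05 at 24 h, adjusted p = 0.485). The third that rose was Capg, an actin-capping protein, by 0.55 ± 0.21 (adjusted p = 0.05), just under the threshold before rounding, and it was not called under most alternatives.

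A further 32 genes (0.276%) stood below both 8 h and rest at 24 h without having been called below rest at 8 h, and 15 of them had been above it. Sqle and Rrs1, described above, were among them. Msmo1, a methylsterol oxidase of cholesterol synthesis, was 9.92 and 9.73 at rest, 10.28 and 10.73 at 8 h, and 8.67 and 8.95 at 24 h. Urb1, a ribosome biogenesis factor, was 8.31 and 8.13, then 9.65 and 9.61, then 7.55 and 7.65. Their number was 3 without number 1 of 0 h, 6 without number 2 of 0 h and 7 without number 1 of 24 h.

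Not every gene moved back. Of the 831 raised genes without a call between 8 and 24 h, 247 were still called above rest at 24 h, as were 44 of the 514 lowered ones below it. Lag3, an inhibitory receptor that binds MHC class II, was 7.10 and 6.99 at rest, 11.23 and 11.02 at 8 h, and 11.25 and 10.77 at 24 h, a difference of -0.12 ± 0.24 (adjusted p = 0.761). Cxcr5, the receptor that guides follicular helper cells, was 6.55 and 5.97, then 9.49 and 9.05, then 8.97 and 8.55. The protease gene Gzmb was 5.57 and 5.53, then 8.59 and 8.45, then 8.12 and 7.57. All 3 lay far above rest on both 24 h arrays, although Cxcr5 and Gzmb were called lower at 24 than at 8 h in a fit of the Tconv arrays alone. Ctla4, the inhibitory receptor for CD80 and CD86, went up further, from 8.50 and 8.68 to 9.97 and 9.11 (0.95 ± 0.31, adjusted p = 0.0306), a call lost without number 1 or 2 of 8 h (0.76 and 1.14) or number 1 of 24 h (0.56). Of the 9 inhibitory receptors tested 2 rose and 2 fell, near the shares over all genes (15.5% and 20.2%), and the 5 raised at 8 h had a median return of 15.2%. Each count was 1 without number 1 or 2 of 8 h, as was that of rises without number 1 of 24 h. The list's median was -0.12, and 0.05 after quantile normalization, where Lag3 also turned to 0.05.

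Among lowered genes Slc16a5, a monocarboxylate transporter, was 8.17 and 7.98 at rest, 5.85 and 5.65 at 8 h, and 5.81 and 5.58 at 24 h, with 8.11 on the IgG array. It had not come back at all on either array. Ppp3ca, the catalytic subunit of calcineurin, stayed at 6.62 and 6.76 and then 6.43 and 7.03, against 7.77 and 8.30 at rest, and Gbp7, an interferon-induced GTPase, at 7.92 and 8.01 and then 8.15 and 8.62, against 9.57 and 9.78. The differences of Ppp3ca and Slc16a5 were small and changed sign under single alternatives.

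The classes were set beside the other in vivo groups of Tconv. The 24 h arrays enter both the classes and these comparisons, so the shares below are descriptions and no support is drawn from them. The IgG group holds 1 array, which was assumed to vary like the other groups. Against the IgG array 313 genes were called at 24 h (2.7%), 275 higher (2.37%) and 38 lower (0.328%). The genes first raised by 24 h were among the higher ones in 155 of 320 cases (48.4%), with a median of 0.93, while 27 of 2074 genes that returned from above and 37 of 1145 that returned from below were. Between 24 and 72 h 375 genes changed (3.24%), of which 344 were lower at 72 h (2.97%). This included 137 of the 320 first raised by 24 h (42.8%), whose median was 0.39 above rest at 72 h. Without number 1 of 24 h these counts over all genes were 189 against IgG and 100 against 72 h, and without number 2 of 24 h the latter was 237.

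In Treg of KT3-injected mice 1980 genes were called between 8 and 24 h (17.1%), 1022 higher (8.82%) and 958 lower (8.27%). The Treg arrays were not among those compared to define the classes, but they shared the fit's spread, replicate block and filter. The shares of class members called in Treg are therefore not independent of the classes. Of the genes that returned from above in Tconv 817 were lower in Treg (39.4%) and 3 higher, and of those that returned from below 603 were higher (52.7%) and 4 lower. Of the 320 genes first raised by 24 h 242 rose in Treg (75.6%), and 34 of 34 mitosis genes did so, with a median of 1.43. The differences were smaller in Treg, with a median of -0.41 against -0.87 for genes that returned from above. Since the genes were chosen for their change in Tconv, that gap in size is a description. The Treg arrays at 8 h came from double (number 2) and single sorting and both at 24 h from single sorting. Markers of other cells moved too, as 2 of 6 macrophage and 1 of 5 B cell markers were lower in Treg at 24 h and the 6 neutrophil markers had a median of -0.99, without a call. Their part in the result was not tested.

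The test of the difference between cell types called 215 genes (1.86%), 104 with a higher (0.897%) and 111 with a lower difference in Treg (0.958%). Il21 and Il2 fell in Tconv, while in Treg Il2 was low at both times (4.64 and 5.23, then 4.49 and 5.01). Bhlhe40, a transcription factor of cytokine-producing T cells, fell in Tconv from 8.60 and 9.17 to 6.95 and 6.38, and stayed at 8.36 and 8.54 and then 9.01 and 8.44 in Treg (difference 2.49 ± 0.36, adjusted p = 0.00663). Id2, an inhibitor of E proteins, rose in Tconv from 9.16 and 8.93 to 10.20 and 10.42 and fell in Treg from 9.40 and 9.55 to 8.49 and 8.84 (difference -2.07 ± 0.20, adjusted p = 0.000802). The number called moved with the model and with single arrays: it was 121 and 116 without number 1 or 2 of Tconv at 0 h, 65 and 29 without number 1 or 2 at 8 h, and 25 without number 1 at 24 h.

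**Figure D4:**
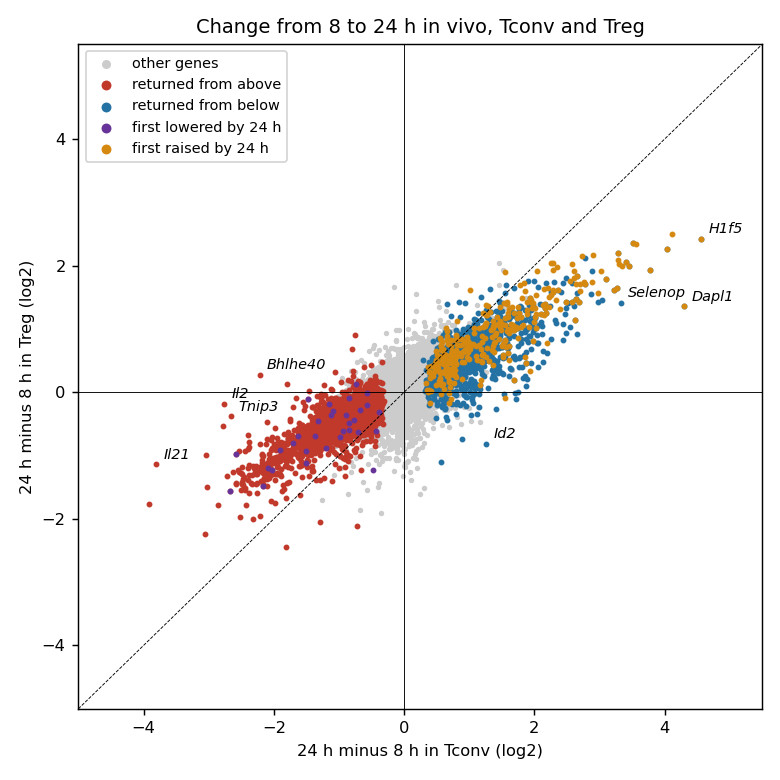
Each point is a gene, with its 24 h minus 8 h difference (log2) in Tconv on the horizontal and in Treg on the vertical axis, coloured by its class in Tconv, and the dashed line marks equal change. Most coloured points share the sign and lie nearer to 0 in Treg, and 8 genes with a called difference between cell types are named, of which Id2 rose in Tconv and fell in Treg.

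When KT3 was added to splenocytes in culture, 782 of 12509 genes were called between 8 and 24 h in Tconv (6.25%), 611 higher (4.88%) and 171 lower (1.37%), in a fit of all 42 arrays. There Il21, at 0.24, and Il2, at -0.28, were not called (adjusted p = 0.567 and 0.603), and 2 of 34 mitosis genes rose, with a median of 0.25. Tnfrsf9 and Irf4 fell, by 1.69 and 1.54. The culture count rested on single arrays, with 19 genes without number 1 of 8 h, 68 without number 1 of 24 h and 1826 without number 1 of 0 h. Since the sex and age of the mice differed, these values are set beside the injected mice as a description. The test of the difference between culture and injection called 394 genes (3.15%), 261 with a higher (2.09%) and 133 with a lower difference in culture (1.06%).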

How the data were processed

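The authors deposited linear intensities, with 1 value for each transcript cluster on each Affymetrix ST1.0 gene array. Per the series' design text and the submitters' processing notes, they were preprocessed with RMA and Affymetrix Power Tools; no versions are named. The deposited table has the range 4.8403 to 29756.3596, and log2 was taken here without an offset. Of 24922 clusters 21425 had 1 symbol in the platform table, 1399 several and 2098 none. These gave 19752 genes, the brightest cluster standing for each of the 921 with more than 1. A filter kept the 11588 genes that exceeded the median of an array on 2 or more of the 22 in vivo arrays. The number of arrays, 1 or 2 per group, limits the precision.

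Group means of the 22 in vivo arrays (12 groups), with the replicate number as a block, were fitted with limma 3.58.1 (R 4.3.3, 9 residual and 4.36 prior degrees of freedom). Moderated two-sided tests were adjusted by Benjamini-Hochberg and called under 0.05. The block was kept because same-numbered Tconv arrays deviated together (r = 0.663 to 0.78 over 10 pairs of groups), although between Tconv and Treg arrays r ran from -0.136 to 0.355 over 25 pairs. Return is the share of the 8 h difference from rest that was lost by 24 h. Genes raised or lowered at 8 h were chosen by that same difference, which favours a high return in each set.

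The members, the 24 gene lists and the 10 marker lists were chosen with earlier results of these data known. Of 517 list genes 444 were tested. Named genes were a fixed set (such as Il2, Irf4, Lag3 and Mki67), the 8 largest non-overlapping changes of each class, up to 4 called members of each list (or the largest where none was called) and 4 genes each way for the difference between cell types, without predicted genes, small RNAs and antigen receptor segments. Foxp3, Ifng, Ltb, Tbx21, Mcm2, Gins1, Slc2a3, Trib3, Satb1, Egr1, Dusp6, Il2rb, Cd44, Lig1, Dtl, Cxcr5, Gzmb, Ppp3ca and Gbp7 fall outside this rule and were chosen after their values were seen. The scripts were tested on simulated data. Alternatives changed the block, the arrays fitted, normalization, offset, filter and fold. Python 3.11.15 with numpy 2.4.6, pandas 2.3.3 and matplotlib 3.10.9 served for tables and plots.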

Additional observations from a re-analysis of the deposited data

Results flagged for a closer look

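The change from 8 to 24 h differed between Treg and Tconv by limma's test of the difference itself for 8 named genes, given as Treg minus Tconv. It was lower in Treg for Dapl1 (-2.93 ± 0.37, adjusted p = 0.00475), H1f5 (-2.13 ± 0.33, adjusted p = 0.00845), Id2 (-2.07 ± 0.20, adjusted p = 0.000802) and Selenop (-1.91 ± 0.27, adjusted p = 0.00619). Dapl1, H1f5 and Selenop rose in both cell types and rose less in Treg, and Id2 fell in Treg. The difference was higher in Treg for Il21 (2.67 ± 0.27, adjusted p = 0.000802), Il2 (2.58 ± 0.42, adjusted p = 0.00975), Bhlhe40 (2.49 ± 0.36, adjusted p = 0.00663) and Tnip3, an inhibitor of NF-kB signalling (2.28 ± 0.49, adjusted p = 0.0352). Il21 fell by 3.81 in Tconv and fell by 1.14 in Treg. Il2, Bhlhe40 and Tnip3 were called lower in Tconv and not called in Treg. Il21 and Il2 exceeded the array median on fewer than 6 of the 22 in vivo arrays, so a stricter filter dropped both. They entered the test through the arrays where they were high, and how often they were called is a description. Over the alternatives that gave a value, Il21 (16 of 16) and Bhlhe40 (17 of 17) were called each time, Dapl1, Id2 and Selenop in 16 of 17, Il2 in 14 of 16, H1f5 in 13 of 17 and Tnip3 in 9 of 17, with the highest adjusted p at 0.241 for H1f5.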

How the results depend on the processing

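Of 2573 values of 136 named genes under 19 settings, 2486 kept direction and call, 63 lost the call, 10 gained it and 14 changed sign, and the causes were not tested. Sign changes of the 24 h minus 8 h difference were Egr2 0.05, Lag3 0.05 and Ppp3ca -0.06 after quantile normalization and Ppp3ca -0.04 after median centring. Leaving out 1 array at a time gave Egr2 -0.63 to 0.49, Cd69 -0.74 to 0.24, Lag3 -0.28 to 0.05, Slc16a5 -0.22 to 0.11, Ppp3ca -0.17 to 0.26, Car1 -0.09 to 1.01, Lyz2 -1.01 to 0.45 and Ltf -0.93 to 0.30; the other sign change of Lyz2 was 0.37 without number 1 of 24 h. None of these was called in the fit reported above.

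Counts over all genes that moved by over 1.5 times follow. Without the replicate block 354 genes were called at 24 h against 0 h, 176 against IgG, 79 between 24 and 72 h, 1209 between 8 and 24 h in Treg and 46 for the difference between cell types, with 191 first raised and 6 first lowered by 24 h. With the replicate block within each cell type, an alternative chosen after seeing the data, these were 2013, 683, 996, 3261, 1219, 529 and 196. With all 42 arrays they were 363, 194, 194, 841, 24, 201 and 5, with 2985 at 8 h against 0 h, 1336 that returned from above and 686 from below. With Tconv arrays alone 1600 genes were called against 0 h, 553 against IgG and 778 between 24 and 72 h, with 147 first lowered. With sorting as the block these were 433, 181, 151 and 11, with 48 for the difference between cell types and 211 first raised, and with sorting added to the replicate block the difference had 78 and first lowered 20. At a change of at least 2-fold there were 1461 genes between 8 and 24 h, 1623 at 8 h and 262 at 24 h against 0 h, 132 between 24 and 72 h, 486 in Treg, 139 for the difference, 714 that returned from above, 349 from below, 138 first raised and 3 first lowered. Quantile normalization gave 78 first lowered. Median centring gave 102 for the difference, 705 that returned from below and 9 first lowered. No filter gave 97 for the difference and 19 first lowered. In the gene lists of the report, the 11 respiratory chain falls became 4 with all 42 arrays, 5 without the replicate block and 6 after quantile normalization or with sorting as the block. With all 42 arrays the 11 rises of T cell receptor genes became 7, the 3 rises of activation receptors 1 (as after median centring), and the calls of the 3 GIMAP rises were lost. The 6 cytokine falls became 3 under a stricter filter. The 9 interferon-stimulated rises became 14 and the 4 falls of helper lineage genes 7 with Tconv arrays alone, and 15 and 7 with the replicate block within each cell type. Both DNA replication falls lost their call without the replicate block, and 1 fell under a stricter filter. Other list counts that moved this far held 1 or 2 genes in 1 direction and moved by 1 gene.

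Leaving out 1 array at a time gave 2812 to 3999 genes between 8 and 24 h, 3092 to 4504 at 8 h and 332 to 708 at 24 h against 0 h, 189 to 275 against IgG, 100 to 308 between 24 and 72 h, 1786 to 1907 in Treg, 25 to 224 for the difference, 1395 to 1845 that returned from above, 772 to 985 from below, 150 to 264 first raised, 3 to 31 first lowered and 19 to 1826 in culture. In the lists, the 11 respiratory chain falls became 5 to 10, the 3 rises of activation receptors 1 to 3 and the 7 falls of early T cell receptor response factors 4 to 7. Where a group then held 1 array, that array was assumed to vary like the other groups.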
